A study of Mus musculus with 9 samples.

Results

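Rab GTPases were examined as a gene family in sorted skin cells of mice with and without Flg, which encodes the barrier protein filaggrin. Members were the rows of the count table whose identifier maps to a protein-coding mouse symbol made of Rab, a number and at most 1 letter, which gave 59 of 49671 gene rows; effectors, regulators and pseudogenes were left out. The family was taken up because Rab21 had one of the smallest p-values of all genes in the comparison of the Flg genotypes, so the genotype values of Rab21 are a description and not a test. The 5 control samples carry Flg genotype wt/wt and the 4 knockout samples ko/ko; the labels name no strain, age, sex or treatment for either group, and no further allele. Each library came from epidermal cells sorted to lack CD45 (found on leukocytes) and to carry CD49f, which is integrin alpha 6. The sample titles hold an identifier each, but nothing says outright that these are separate animals, so p-values measure the spread between these samples.

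Rab proteins are small GTPases that switch between a GTP-bound form held on a membrane and a GDP-bound form held in the cytosol. Exchange factors load GTP, GTPase-activating proteins end the active state, and effectors such as tethers and motors carry out vesicle budding, transport and fusion, each Rab on its own set of membranes. Rab21 acts on early endosomes and is known for binding integrin alpha chains and moving integrins through the endocytic route, which keratinocytes and fibroblasts use in adhesion and migration.

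Libraries held 15601859 to 23200440 counts. Levels are given as CPM, the count scaled to library size. By raw library totals, 3 counts, the limit that a count of 0 allows, equal 0.129 to 0.192 CPM. Flg itself had 0 to 6 counts per library in wt/wt and 0 to 4 in ko/ko, too few to check the labels. The labelled epidermal cells were checked against markers: summed basal keratinocyte markers ran from 1300 to 2870 CPM and summed fibroblast markers from 26000 to 58000 CPM, so fibroblast transcripts outweighed keratinocyte transcripts in all 9 libraries. Melanocyte markers summed to 216 to 591 CPM, mural markers to 217 to 514, suprabasal keratinocyte markers to 150 to 259 and Schwann cell markers to 42.7 to 240 CPM. Endothelial sums were 228 to 486 CPM in wt/wt and 190 to 233 CPM in ko/ko. Of the 6 endothelial genes, 2 had a higher median in ko/ko, and only Lyve1 had no overlap between genotypes. Leukocyte lists leaned the other way: myeloid markers summed to 2.08 to 17.1 CPM in wt/wt and 3.59 to 126 CPM in ko/ko, with 8 of 8 genes at a higher median in ko/ko. T cell markers summed to 0.551 to 3.66 and 3.18 to 6.94 CPM (4 of 4 genes higher), and mast cell markers to 8.34 to 29.1 and 5.82 to 59.9 CPM (4 of 5 higher). The summed lists overlapped between genotypes. Of 56 single marker entries, 2 were higher and 2 lower in ko/ko without overlap, where 3.51% and 2.74% of all genes tested were. These 4 are given as a description. Krt1 was 3.15 to 5.91 CPM in wt/wt and 8.24 to 15.8 CPM in ko/ko, and Ptprc, which encodes CD45, was 0.0508 to 0.864 and 0.910 to 7.17 CPM. Lyve1, a lymphatic endothelial marker, was 91.6 to 245 CPM in wt/wt and 45.0 to 62.2 CPM in ko/ko. Sbsn, from the same suprabasal list as Krt1 but of the other sign, was 37.4 to 52 and 29.8 to 35.0 CPM. Mitochondrial genes took 1.81% to 2.01% of counts in ko/ko replicates 2 to 4 and 2.77% to 7.55% in the other 6 libraries. The part of these differences in the results below was not tested. The predicted genes Gm10800 and Gm10801 together took 2650 CPM of wt/wt replicate 1, 4730 CPM of ko/ko replicate 1 and 14600 CPM of ko/ko replicate 4, while the remaining 6 libraries had 3.45 to 332 CPM. All wt/wt library identifiers precede all ko/ko ones, so an order of handling and the genotype cannot be told apart.

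Near-identical relatives were a possible source of shared reads, and the transcripts were compared for that reason. No 50-base window of the annotated Rab21 transcripts occurred in the transcripts of another gene (0 of 4997 windows), and the largest number shared by any pair of Rab genes was 21, between Rab4b and Rab11b. Other genes shared more. Rab24 shares 49.6% of its windows with Prelid1, and 13.6% of the windows of Rab11b occur in other genes, most of them in the pseudogene Rab11b-ps2. Such shares were 12.7% for Rab7, mostly with Rab7-ps1, and 9.80% for Rab5b, all with Gm13991, so values of these 4 are uncertain too. In the count table, 18 members share exon bases with another gene, and 7 of them share over 10% of their exon bases with 1 gene. The largest shares were 75.4% for Rab43 with Gm45140, 65.0% for Rab4b with Gm21983 and 59.3% for Rab2b with Gm43766, and values of these 3 are the least certain. Rab20, Rab6a, Rab33b and Rab39b share 18.6% to 25.6% with a gene on the opposite strand, and the library kit does not mark strand, so reads of such pairs cannot be told apart.

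Sequence upstream of the genes was looked at because Rab21 and Rab5a, the best-known early endosomal Rab, hold the same 10-base palindrome there while their values between genotypes were unlike; the pair was chosen after those values were seen. The following stretches end 4 bases before the RefSeq start (build GRCm38.p6), at chr10:115315595-115315794 on the minus strand for Rab21 and chr17:53479031-53479230 on the plus strand for Rab5a, with the palindrome in capitals.
Rab21: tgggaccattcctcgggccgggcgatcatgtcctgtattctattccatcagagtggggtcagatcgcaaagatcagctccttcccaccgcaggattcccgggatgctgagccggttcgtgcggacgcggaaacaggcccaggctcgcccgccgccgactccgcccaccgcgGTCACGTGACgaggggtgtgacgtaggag
Rab5a: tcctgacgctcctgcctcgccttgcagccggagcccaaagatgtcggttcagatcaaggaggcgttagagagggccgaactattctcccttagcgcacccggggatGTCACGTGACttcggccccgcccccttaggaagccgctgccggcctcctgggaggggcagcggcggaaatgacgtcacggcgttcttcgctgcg
The palindrome begins 32 bases before the start in Rab21 and 97 bases before it in Rab5a. Its first 8 letters, GTCACGTG, searched on both strands of the 250 bases before each start, occurred at 2 of 60 Rab starts (3.33%) and at 1.85% of 32851 starts of all genes. The 2 are Rab21 and Rab5a themselves, from which the letters were taken, so nothing is read from that share. Both strands of CACGTG, the E-box contained in the palindrome, gave 5 of 60 Rab starts (8.33%), this pair among them, against 6.02%. The GC box GGGCGG occurred at 66.7% of Rab starts against 32.7% of all starts, and the CCAAT box at 40.0% against 33.8%. Median GC content was 60.2% at Rab starts against 52.4% at all starts. RefSeq starts were matched for 48 of the 59 genes, and a match describes letters in this window only.

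Levels were compared between genes as CPM per kilobase (kb) of exon, and their means ran from 0.0142 for Rab9b to 286 for Rab18. Rab18, which acts at the endoplasmic reticulum and lipid droplets, had the highest level, with 281 ± 33.5 CPM per kb (SD, n = 5) in wt/wt and 292 ± 55.0 (SD, n = 4) in ko/ko. Rab7, the late endosome and lysosome Rab, followed at a mean of 127 CPM per kb over the 9 libraries. Next came Rab1a at 93.2 and Rab1b at 71.2 CPM per kb, which serve transport from the endoplasmic reticulum to the Golgi, with Rab6a of the Golgi at 75.1 and Rab11a of recycling endosomes at 70.2 CPM per kb. From Rab7 down, each of these ranges over libraries overlaps the next, so the ranges alone set apart only Rab18. Taken within each library, Rab7 was above every member other than Rab18. These 6 genes together made up 52.1% to 58.1% of the summed CPM per kb of the family in each library. All Rab genes together took 3320 to 4390 CPM in wt/wt and 3100 to 4340 CPM in ko/ko, lowest in ko/ko replicate 1.

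**Figure D1:**
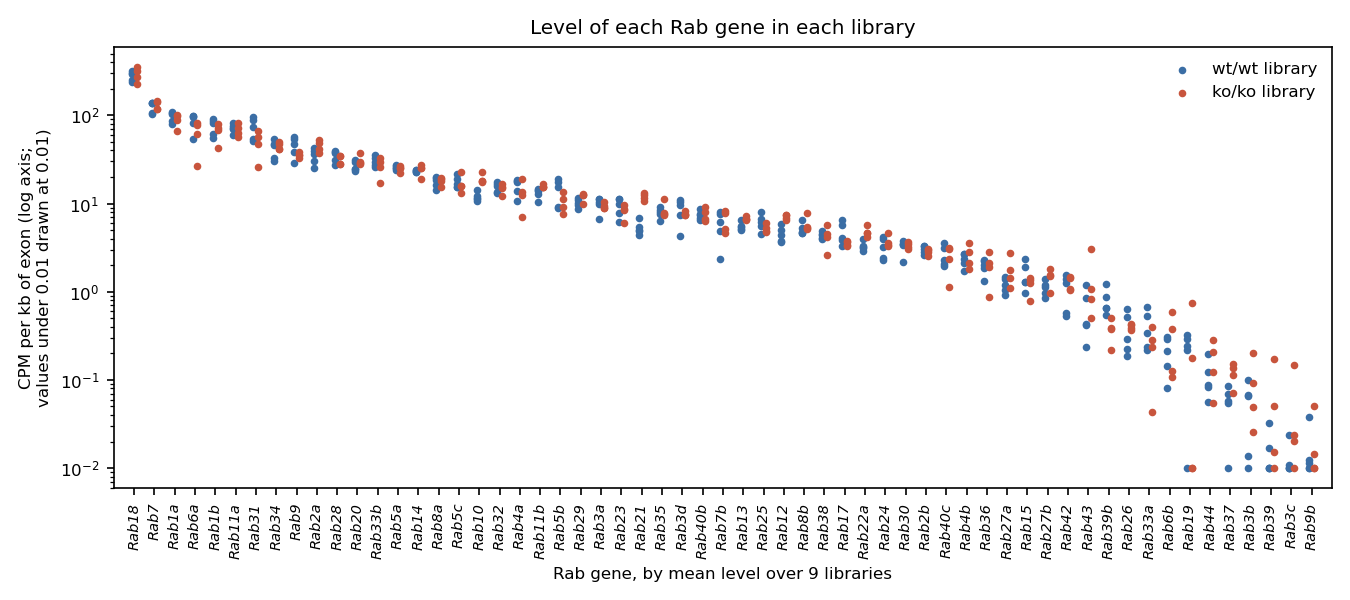
Level of each of the 59 Rab genes in CPM per kb of exon (log axis), 1 point per library, with wt/wt in blue and ko/ko in red. Rab18 stands above all other members, Rab21 lies in the middle at rank 26, and the members at the right end reach 0 counts in some libraries.

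Rab21 ranked 26th, at 5.28 ± 0.904 CPM per kb (SD, n = 5) in wt/wt and 12 ± 1.10 (SD, n = 4) in ko/ko. In wt/wt its level was thus below those of Rab5a (25.7), Rab5c (17.6) and Rab5b (13.9 CPM per kb), the other early endosomal members with general roles. At the low end, 7 members had too few counts to be tested: Rab3b, Rab3c, Rab9b, Rab19, Rab33a, Rab37 and Rab39, none above 1.27 CPM in any library. Of these, Rab3b, Rab3c and Rab37 act in regulated secretion. In all, 6 members had 0 counts in at least 1 library and 35 had 10 CPM or more in every library. Within genotypes the median coefficient of variation over the 52 tested members was 19.1% in wt/wt and 17.6% in ko/ko.

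Rab21 was higher in every ko/ko library than in any wt/wt library. Its values were 9.05, 9.75, 12.4, 8.90 and 8.03 CPM in wt/wt replicates 1 to 5 and 23, 21.3, 23.9 and 19.4 CPM in ko/ko replicates 1 to 4. The groups were apart, and the lowest ko/ko library was 1.57 times the highest wt/wt library. Rab21 (ENSMUSG00000020132) lies on mm10 chromosome 10 from 115289863 to 115315591 on the minus strand, shares no exon bases with another gene in the table, and its exons there cover 1823 bases. Raw counts were 175 to 253 in wt/wt and 384 to 511 in ko/ko. The mean was 2.28 times as high in ko/ko, and the fitted log2 fold change was 1.19 (SE 0.17). As the gene for which the family was chosen it is given without a call; its edgeR adjusted p over all genes was 0.0875, and it held rank 3 of 18435 genes by p-value. The log2 fold change was 1.21 without the 3 libraries rich in Gm10800 and Gm10801, and 1.13 to 1.29 with each library left out in turn. Counts come from all sorted cells together. A change in the number of cells of a type and a change in RNA per cell thus cannot be told apart, here or in the values that follow. Its share of all Rab counts was 0.183% to 0.290% in wt/wt and 0.474% to 0.741% in ko/ko.

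Over the whole family, no member passed the adjusted threshold of 0.05 in edgeR's quasi-likelihood test (0 of 52), where 0.00542% of all 18435 genes tested did, and at 0.1 only Rab21 was under the threshold (1 of 52, against 0.168% of all genes). At an unadjusted p under 0.05 there were 4 members higher in ko/ko, Rab21 among them, or 7.69% against 8.86% of all genes. Likewise 1 was lower, or 1.92% against 6.42% of all genes, and 15.3% of all genes had such a p in either direction. By DESeq2, 4 members rose and 0 fell, against 2.27% and 0.767% of its 22415 genes. With limma's voom and quality weights, 4 rose and 1 fell, against 6.60% and 3.17% of all genes. The contrast set the choice of the family, so nothing is read from these counts. The median log2 fold change of the tested members was 0.03, against -0.03 over all genes, with 28 positive (47.4% of all genes were) and 24 negative, and 34 of 52 lay within 0.3 of 0.

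**Figure D2:**
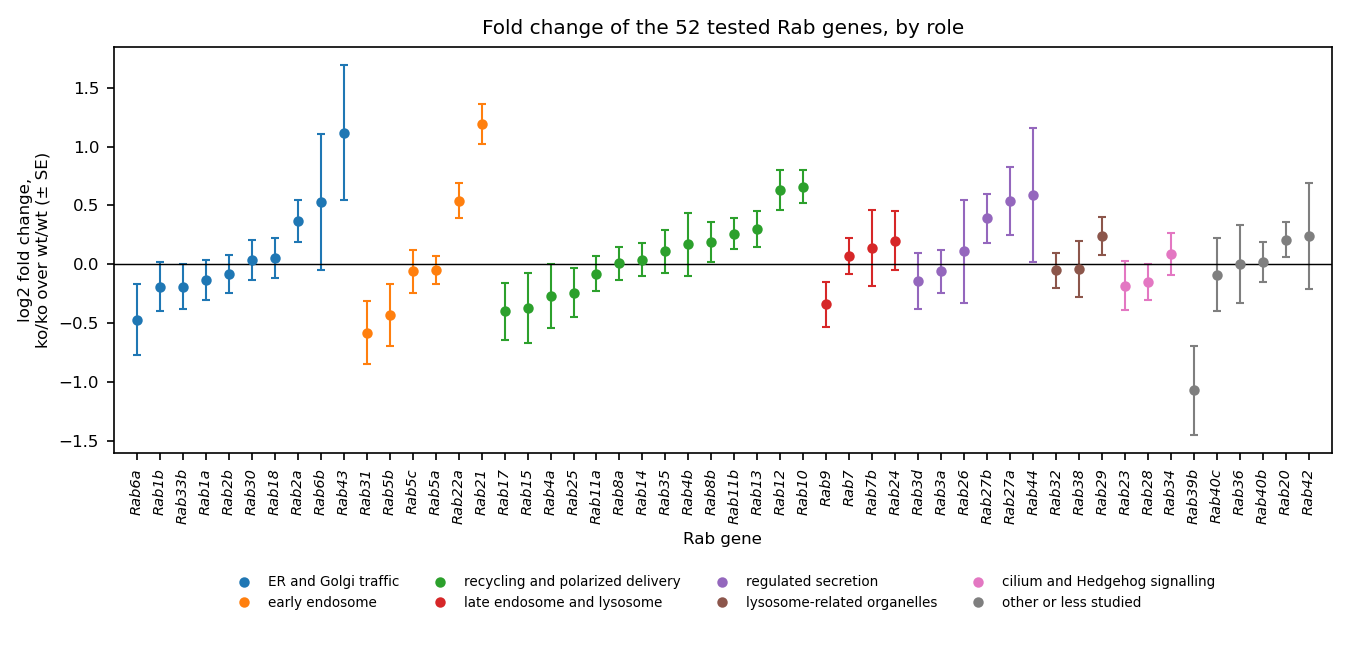
Log2 fold change of ko/ko over wt/wt with its SE for the 52 tested Rab genes, grouped and coloured by role and ordered within each group. Rab21 and Rab43 have the highest values and Rab39b the lowest, and the SE of Rab43 is more than 3 times that of Rab21.

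Groups without overlap were found for 5 members higher in ko/ko, against 3.51% of all genes, and for 1 member lower, against 2.74%. The contrast is the one behind the choice of the family, so these counts too are a description. They were Rab21, Rab10, Rab12, Rab22a and Rab11b on the higher side and Rab39b on the lower side. None of the 5 other than Rab21 passed edgeR's test (0 of 5).

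**Figure D3:**
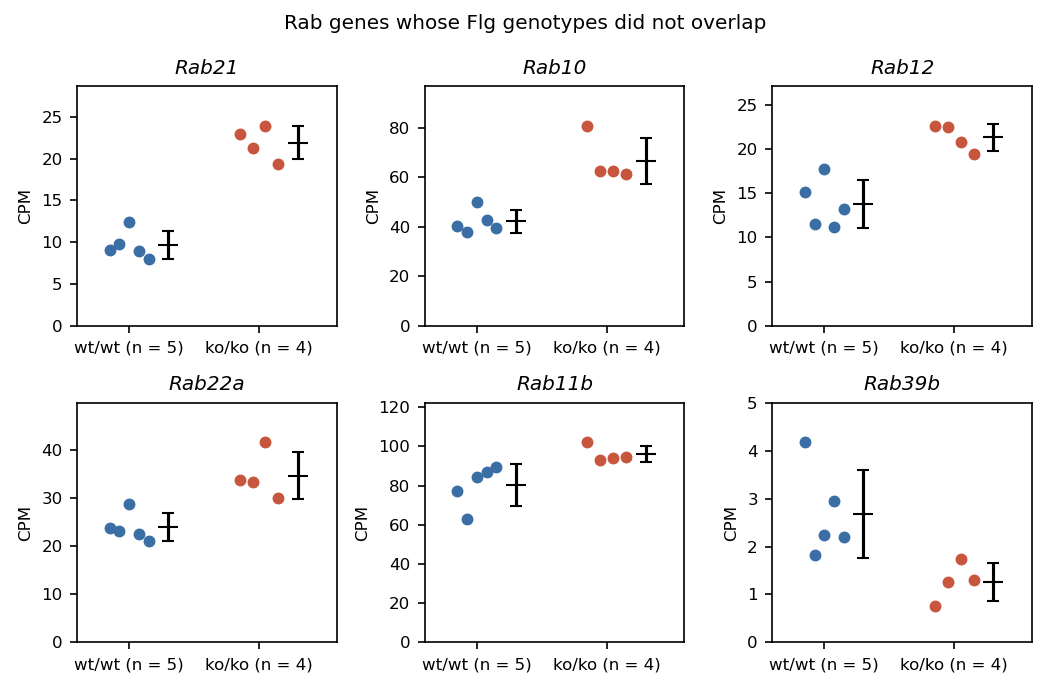
CPM of the 6 Rab genes whose genotypes did not overlap, 1 point per library, with the mean and SD beside each group and axes from 0. The 4 ko/ko libraries of Rab21 sit between 19.4 and 23.9 CPM, above all wt/wt libraries, while the gap for Rab11b is narrow.

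Early endosomal members had values of both signs. Rab22a, which acts with Rab5 in early endosomal sorting, had 23.8, 23.2, 28.7, 22.6 and 21 CPM in wt/wt replicates 1 to 5 and 33.7, 33.2, 41.5 and 30.0 CPM in ko/ko replicates 1 to 4. All ko/ko libraries were above all wt/wt libraries. The log2 fold change of 0.54 (SE 0.15) had an adjusted p of 0.170 with edgeR, 0.0432 with DESeq2 and 0.0456 with limma's weighted voom, so the call depends on the tool. Rab31, the closest named relative of Rab22a and a Rab of transport between the trans-Golgi and endosomes, had values of the other sign. It ran from 180 to 329 CPM in wt/wt and was 89.8, 228, 163 and 196 CPM in ko/ko replicates 1 to 4, so the groups overlapped. Its log2 fold change was -0.58 (SE 0.27, edgeR adjusted p = 0.343) and -0.37 without ko/ko replicate 1, its lowest library. By limma's weighted voom the adjusted p was 0.0481.

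The Rab5 genes, which control fusion of endocytic vesicles with early endosomes, showed no such gap. Rab5a was 56.7 to 63.8 CPM in wt/wt and 52.4 to 63.0 CPM in ko/ko, one of the steadiest members, with a log2 fold change of -0.05 (SE 0.12). Rab5c had -0.06 (SE 0.18) and Rab5b -0.43 (SE 0.26, edgeR adjusted p = 0.459). Of the 6 early endosomal members, 2 were positive and 4 negative.

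Recycling and polarized delivery was the largest role group, with 9 of 14 members positive and a median log2 fold change of 0.07. Rab10, which carries exocytic vesicles to the plasma membrane, had 40.3, 37.9, 50.2, 42.8 and 39.6 CPM in wt/wt replicates 1 to 5 and 80.7, 62.4, 62.4 and 61.2 CPM in ko/ko replicates 1 to 4. Every ko/ko library was higher, and ko/ko replicate 1 stood above the other 3. The log2 fold change of 0.66 (SE 0.14) passed with DESeq2 (adjusted p = 0.00576) and limma's weighted voom (adjusted p = 0.0225). It did not pass with edgeR (adjusted p = 0.129). Rab10os, an antisense gene that shares 4.02% of the Rab10 exon bases, had 21.1 to 36.6 CPM in wt/wt and 21.9 to 41.0 CPM in ko/ko, which overlapped, and its reads on the shared bases cannot be told apart from those of Rab10.

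Rab12, which takes part in the transfer of receptors from recycling endosomes to lysosomes, had 15.1, 11.5, 17.7, 11.2 and 13.2 CPM in wt/wt replicates 1 to 5. In ko/ko replicates 1 to 4 it had 22.6, 22.5, 20.8 and 19.4 CPM. The groups were apart. The log2 fold change of 0.63 (SE 0.17) also passed with DESeq2 (adjusted p = 0.0353) and limma's weighted voom (adjusted p = 0.0478). It did not pass with edgeR (adjusted p = 0.160). Rab11b, the second of the widely expressed recycling Rabs, had 63.0 to 89.5 CPM in wt/wt and 93.0 to 102 CPM in ko/ko. The groups were apart by a small margin, in a gene with windows shared with Rab11b-ps2, and its log2 fold change of 0.26 (SE 0.13) had an edgeR adjusted p of 0.391. Its relative Rab11a had -0.08 (SE 0.15). Within wt/wt, replicate 3 was the highest library for all 4 members with an unadjusted p under 0.05 on the higher side, Rab21, Rab10, Rab12 and Rab22a. In ko/ko, the highest library was replicate 3 for Rab21 and Rab22a and replicate 1 for Rab10 and Rab12.

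Other members of that group had log2 fold changes from -0.40 for Rab17 to 0.30 for Rab13, a Rab of tight junction delivery. Rab14, which links the Golgi and endosomes, was 307 to 325 CPM in wt/wt and 256 to 367 CPM in ko/ko, with a log2 fold change of 0.04 (SE 0.14), and Rab8a, of delivery to the plasma membrane and cilium, had 0.01 (SE 0.14). Rab25 and Rab17, which are largely epithelial Rabs, were low at 7.48 to 13.4 CPM and 6.54 to 12.9 CPM over the wt/wt libraries. Their log2 fold changes were -0.24 (SE 0.21) and -0.40 (SE 0.24, edgeR adjusted p = 0.440).

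Among ER and Golgi members 5 were positive and 5 negative (median -0.02), and 0 had an unadjusted p under 0.05, where 15.3% of all genes did. With so few members, nothing is read from that count. Rab2a, of transport between these compartments, had 0.37 (SE 0.18, edgeR adjusted p = 0.355). Rab6a ran from 227 to 305 CPM in ko/ko replicates 2 to 4 and stood at 98.6 CPM in ko/ko replicate 1. Its log2 fold change of -0.47 (SE 0.30) was -0.22 without that library. Rab43 reached 16.9 CPM in ko/ko replicate 1, while all wt/wt libraries had 1.29 to 6.61 CPM. Its fold change on the log2 scale of 1.12 (SE 0.57, edgeR adjusted p = 0.376) was 0.35 without that library and 0.69 without the 3 libraries rich in Gm10800 and Gm10801. The part that this library's composition plays in these values was not tested.

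No late endosomal member had an unadjusted p under 0.05 (0 of 4), and of the 6 tested secretory members 0 did, where 15.3% of all genes did. With so few members, nothing is read from these counts. Rab7 had a log2 fold change of 0.07 (SE 0.15). Rab9, of return transport from late endosomes to the Golgi, had -0.34 (SE 0.19, edgeR adjusted p = 0.421). The secretory members had 4 positive and log2 fold changes from -0.14 to 0.59. Rab27a, which tethers melanosomes and secretory granules, had 0.54 (SE 0.29, edgeR adjusted p = 0.405), and Rab27b had 0.39 (SE 0.21). Rab38 and Rab32, which supply melanosomes with their enzymes, had -0.04 (SE 0.24) and -0.05 (SE 0.15). The ciliary members Rab23, an inhibitor of Hedgehog signalling, Rab28 and Rab34 had -0.18, -0.15 and 0.09. Rab29, which acts at the trans-Golgi and lysosomes, had 0.24 (SE 0.16). The less studied members other than Rab39b ran from -0.09 for Rab40c to 0.24 for Rab42.

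Rab39b, a Rab known from neurons, was the lowest member by fold change. It had 4.17, 1.83, 2.25, 2.95 and 2.20 CPM in wt/wt replicates 1 to 5 and 0.751, 1.27, 1.73 and 1.31 CPM in ko/ko replicates 1 to 4, from raw counts of 13 to 82. The margin between the groups was small. Its log2 fold change was -1.07 (SE 0.38, edgeR adjusted p = 0.234, by DESeq2 0.0926), and -0.62 without the 3 libraries rich in Gm10800 and Gm10801, where the unadjusted p was 0.147. Gm15063 shares 18.6% of its exon bases on the opposite strand and had at most 0.763 CPM.

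The wider Rab machinery was read from 8 lists of regulators, effectors and cargo, in which 0 members passed edgeR's test and medians are to be read beside -0.03 over all genes. Among the partners of Rab21, the GTPase-activating protein Rasa1, which competes with Rab21 for integrin tails, had 33.3, 45.6, 34.9, 33.8 and 24.2 CPM in wt/wt replicates 1 to 5 and 53.6, 58.4, 59.1 and 52.7 CPM in ko/ko replicates 1 to 4. All ko/ko libraries were higher. The log2 fold change of 0.70 (SE 0.17) passed with DESeq2 (adjusted p = 0.0185) and limma's weighted voom (adjusted p = 0.0124). It did not pass with edgeR (adjusted p = 0.140). The Rab21 exchange factors Sbf2 and Ankrd27 had 0.47 (SE 0.22) and -0.10 (SE 0.18), and the early endosomal adaptors Appl1 and Appl2 had -0.12 and -0.10. Of the 8 tested partners 5 were positive, and 1 was higher at an unadjusted p under 0.05 (12.5%, against 8.86% of all genes).

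Integrin chains, the cargo of Rab21, had 8 of 13 positive and a median log2 fold change of 0.18, with 4 higher (30.8%, against 8.86% of all genes) and 0 lower at an unadjusted p under 0.05. Itga9 had 0.56 (SE 0.14, edgeR adjusted p = 0.145) and Itgb3 0.80 (SE 0.28, edgeR adjusted p = 0.228), both without overlap between genotypes. Itga6, whose protein was the sorting marker, had 0.64 (SE 0.17, edgeR adjusted p = 0.157), and Itgb1, the common beta chain, had -0.37 (SE 0.29).

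Retromer and the WASH complex, which sort cargo out of endosomes, had negative values for 12 of 12 genes, with a median of -0.24. Over all genes, 9692 of 18435 were negative. The 12 genes share the same 9 libraries, so their signs are not separate observations. At an unadjusted p under 0.05 there were 2 lower, 16.7% against 6.42% of all genes. Washc2, a WASH subunit, had 55.3, 59.9, 58.2, 53.4 and 61.0 CPM in wt/wt replicates 1 to 5 and 20.8, 48.0, 41.2 and 33.9 CPM in ko/ko replicates 1 to 4. All ko/ko libraries were lower, ko/ko replicate 1 most of all, with a fold change on the log2 scale of -0.68 (SE 0.21, edgeR adjusted p = 0.194). Vps35, the retromer core, had 178 to 300 CPM in wt/wt and 73.4 to 222 CPM in ko/ko, which overlapped, and a log2 fold change of -0.65 (SE 0.28). Scaled by library totals alone 10 of the 12 were negative (median -0.13), as without the 3 libraries rich in Gm10800 and Gm10801 (median -0.23), and without ko/ko replicate 1 there were 11 of 12 (median -0.14).

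**Figure D4:**
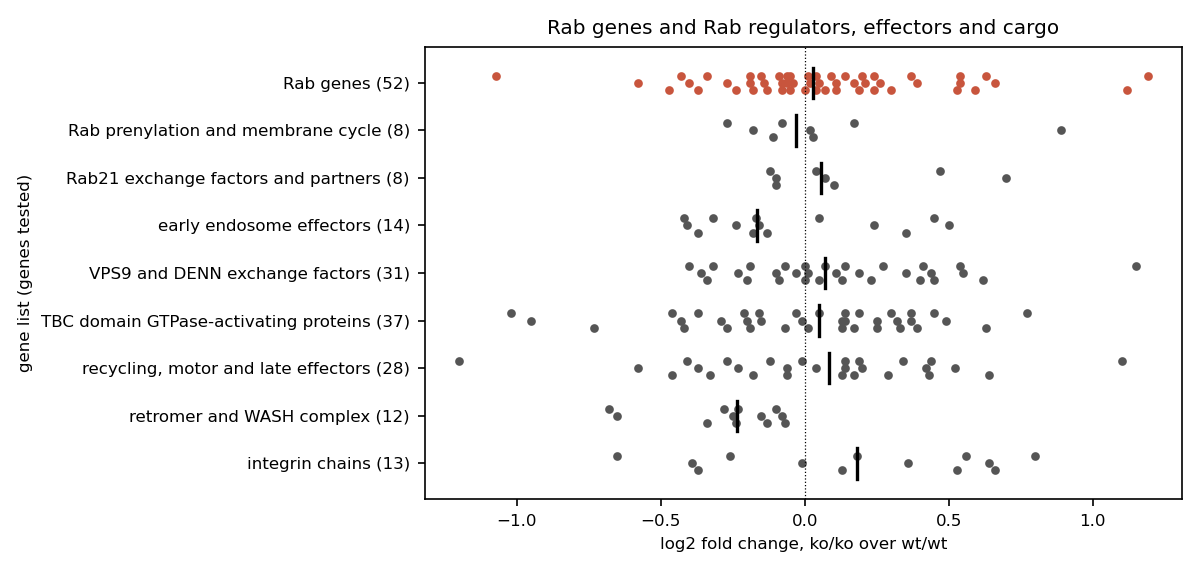
Log2 fold change of each tested gene in the Rab family (red) and in 8 lists of Rab regulators, effectors and cargo (grey), with a black bar at each median and the number of genes tested in brackets. The retromer and WASH list lies wholly below 0, with a median of -0.24, while the Rab genes centre on 0.03.

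Exchange factors of the VPS9 and DENN families had 19 of 31 positive (median 0.07). At an unadjusted p under 0.05, 4 were higher (12.9%) and 0 lower, against 8.86% and 6.42% of all genes. Dennd1b, which activates Rab35, had the highest value in that list, 1.15 (SE 0.34, edgeR adjusted p = 0.182). GTPase-activating proteins with a TBC domain were evenly spread. At an unadjusted p under 0.05, 3 of 37 were higher and 3 lower (8.11% each), against 8.86% and 6.42% of all genes. Evi5, which acts on Rab11, had 0.77 (SE 0.19, edgeR adjusted p = 0.140) and Tbc1d30 had -1.02 (SE 0.29, edgeR adjusted p = 0.174), both without overlap between genotypes. Of 28 recycling, motor and late effectors, 15 were positive (median 0.08). Groups without overlap were 2 higher and 2 lower, against 3.51% and 2.74% of all genes. At an unadjusted p under 0.05, 0 were higher and 3 lower (10.7%), against 8.86% and 6.42% of all genes. Among these 3 were Ehd3 with -0.41 (SE 0.14) and Mical1 with -0.58 (SE 0.21). Early endosome effectors had 5 of 14 positive (median -0.17). At an unadjusted p under 0.05, 2 were higher (14.3%) and 0 lower, against 8.86% and 6.42% of all genes. The 2 were Pikfyve, the kinase that makes a late endosomal phosphoinositide, with 0.45 (SE 0.18), and Zfyve9 with 0.50 (SE 0.22). Prenylation and membrane-cycle genes had 4 of 8 positive. At an unadjusted p under 0.05, 1 was higher (12.5%, against 8.86% of all genes), the escort protein Chml with 0.89 (SE 0.33, edgeR adjusted p = 0.254).

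Exon length was set against fold change as a check on library composition. Spearman's rho across genes was 0.09 over the 52 tested Rab genes and 0.16 over all genes tested, given as a description since the genes share their 9 libraries. With the length trend removed in each library, the log2 fold change of Rab21 was 1.10 and the family median -0.09, against a median over all genes of -0.10.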

How the data were processed

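RNA was measured in 9 libraries, 5 wt/wt and 4 ko/ko, amplified with a SMART method per the labels' protocols. The deposited table holds raw counts per gene made by the authors, with exon length as another column. GSNAP, featureCounts 1.6.2 and mm10 are named per the submitters' processing notes, which give no strand or multi-mapping setting. Of 49763 rows, 92 spike-in rows were left out. Symbols came from GENCODE M21 by identifier (49326 rows). CPM use TMM-adjusted library sizes. Genotype came from the labels, and replicates are numbered by accession, without pairing. Libraries all differed beyond sampling noise (lowest chi-square of any pair 23.9 per degree of freedom).

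Differential expression used edgeR 4.0.16 in R 4.3.3 on the whole table (filterByExpr, TMM, glmQLFit with robust=TRUE, two-sided quasi-likelihood F test, Benjamini-Hochberg over 18435 genes, threshold 0.05). SE was derived from the log2 fold change and F. Tested on simulated data over 18435 genes, of which 17947 passed the filter, it recovered 34 of 97 genes at 2-fold (35%) and 71 of 99 at 4-fold (72%), and 5 of 110 calls were false. Alternatives included DESeq2 1.42.0 and limma 3.58.1. Intervals and floors cover counting error only.

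Members and lists were chosen with earlier results of these data known. Named were Rab21, the highest members per exon length, members with an unadjusted p under 0.05 or no overlap, those with uncertain counting, up to 3 per role group, and up to 4 per pathway list by p; others named (Rab31, the Rab5 genes, Rab17, Rab25, Appl1, Appl2, Itgb1 among them) were chosen after their values were seen. Ranking of relatives by protein sequence was not done here.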

Additional observations from a re-analysis of the deposited data

Results flagged for a closer look

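Over 104 groups of libraries, 7 held a single library far from the rest, where about 1 in 20 groups (5.2) does so by chance. Values are CPM, set beside those of the same genotype. In ko/ko replicate 1, Rab10 was 80.7 CPM (elsewhere 61.2 to 62.4), and Rab35 was 32 against 20.9 to 21.8 CPM. In ko/ko replicate 2, Rab8b was 36.6 against 24.2 to 25.7 CPM, and Rab20 was 52.5 against 38.8 to 40.8 CPM. In ko/ko replicate 3, Rab3d was 34.3 against 31.3 to 31.6 CPM, and Rab29 was 14.4 against 18.4 to 18.8 CPM. In wt/wt replicate 2, Rab30 was 20.9 CPM (elsewhere 32.8 to 36.0). The spike-in rows, left out of all tests, summed to 6 counts for wt/wt replicate 1 and to 1 to 3 in each other library, where a count of 0 allows 3.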

How the results depend on the processing

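The log2 fold change of Rab21 was 1.10 to 1.31 over the alternatives that kept all libraries or left out the 3 rich in Gm10800 and Gm10801. Without each library in turn it ran from 1.13 to 1.29, Rab members called stayed at 0, and the family median ran from -0.03 to 0.08. Genes called over all genes then ran from 0 to 12, against 1. Members with an unadjusted p under 0.05 were 4 to 6 higher and 1 to 4 lower. The shares over all genes were 6.13% to 12.1% and 4.52% to 7.81%. Members counted as higher or lower below are at that same unadjusted p. Scaled by library totals alone, 4 genes were called, 37 of 52 Rab members were positive, and the median of all genes moved from -0.03 to 0.08. With that scaling 8 of 52 members were higher, against 11.5% of all genes. Without a filter on low counts, 28 genes and 1 Rab gene, Rab21 (edgeR adjusted p = 0.0452), were called. In that fit 2 of 59 members were lower, against 3.77% of all genes. DESeq2 called 680 genes, 4 of them Rab (Rab21, Rab10, Rab12 and Rab22a), and had 2 of 57 members lower, against 6.33% of its genes. Limma voom with quality weights called 1802 genes, 5 of them Rab (Rab21, Rab10, Rab12, Rab22a and Rab31). It had 6 of 52 members lower, against 12.5% of all genes. With the exon length trend removed, 0 genes were called, 2 of 52 members were lower (against 9.60% of all genes) and the family median was -0.09. Without the 3 libraries rich in Gm10800 and Gm10801, 7 genes were called and 0 of 52 members were lower, against 4.28% of all genes. At a threshold of 0.1, 31 genes and 1 Rab gene were called. Over these alternatives none of 90 values of Rab10, Rab11b, Rab12, Rab22a and Rab39b changed sign (0), and 6 passed the threshold. The cause of these shifts was not tested. No paired analysis was possible because the labels give no replicate numbers shared between genotypes. Depth limits the 7 untested members.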
